A study of Mus musculus with 4 samples.

Results

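Semaphorins, plexins, ephrins and Eph receptors were examined in cultured mouse podocytes treated with interleukin-12 (IL-12). The members were the rows of the deposited count table that are annotated as protein-coding and whose symbol begins with Sema and a digit, with Plxna to Plxnd, with Epha or Ephb and a digit, or with Efna or Efnb and a digit. This rule gave 51 genes of the 54532 listed, and it used symbols and biotypes only. The families themselves were chosen with earlier results of these data known. They are 20 semaphorins, 9 plexins, 8 ephrins and 14 Eph receptors. RNA was sequenced from 2 libraries of podocytes that had received IL-12 at 400 ng/ml and were collected 6 h later (the IL-12 libraries) and from 2 libraries of podocytes that received saline (the control libraries). All 4 came from MPC5, a conditionally immortalized mouse podocyte line that grows with interferon-γ at a permissive temperature and differentiates once both are withdrawn, so both groups share the same transformed background. Whether the libraries within a group came from separate cultures is not stated, so the p-values measure the spread between these libraries, which may be technical.

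Semaphorins are secreted or membrane-bound guidance cues. Plexins are their main receptors, and most secreted (class 3) semaphorins also need a neuropilin as a co-receptor. Ephrins are ligands that stay on the cell surface, held by a lipid anchor in the A class and by a transmembrane segment in the B class. Eph receptors are receptor tyrosine kinases that bind them on neighbouring cells, and signals can run in both directions. Both systems act on the actin cytoskeleton and on cell adhesion through small GTPases. In the kidney glomerulus, semaphorin 3A is made by podocytes, the cells whose interdigitating foot processes form the filtration barrier, and ephrin-B1 has been placed at the slit diaphragm between them.

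The libraries held 18355379 to 20098012 counts, and 3 counts corresponded to 0.149 to 0.163 CPM (counts scaled to a common library size), which covers counting error only. The 51 members together took 0.482% to 0.497% of each library. Chi-square values per degree of freedom, where 1 is pure counting noise, were 2.20 for the control pair and 2.52 for the IL-12 pair, against 17.9 to 21.6 for pairs taken from both groups. Of 15 podocyte markers, 8 were expressed well enough to be tested, among them Synpo, Podxl, Cd2ap and Kirrel. The defining markers Nphs1 (nephrin) and Wt1 had 1 and 32 counts over the 4 libraries, and Tcf21 and Ptpro had 0. The summed level of the 8 endothelial markers was 11.03 to 11.4 CPM in the control libraries and 9.12 to 9.66 CPM in the IL-12 libraries, most of it from Ehd3, with Pecam1 and Cdh5 at 4 and 9 counts. For the 8 leukocyte markers the corresponding sums were 26.9 to 29.3 CPM and 16.2 to 20.5 CPM, most of it from Csf1r and Cd68, with Adgre1 and Cd3e at 0. The 8 mesangial and fibroblast markers summed to 79.2 to 80.2 CPM in control and 86.3 to 97.5 CPM in IL-12 libraries, most of it from Pdgfrb, with Ren1 at 0. The 6 tubule markers summed to 635 to 661 CPM in control and 519 to 560.1 CPM in IL-12 libraries, nearly all of it from Lrp2 (megalin), with Slc34a1 and Umod at 0. Their part in the results was not tested. Of the receptor chains for the agent itself, Il12rb1 counts were 25 and 8 without and 18 and 26 with IL-12 (log2 fold change 0.41, SE 0.46), and Il12rb2 had 0 and 0 against 1 and 4.

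The podocytes expressed a broad but uneven set of these genes. Levels of different genes were compared as FPKM, the deposited counts per kilobase of gene length, scaled to a common library size. Of the 51 members, 31 had a mean of at least 1 FPKM over the 4 libraries, 45 had at least 1 count, and 6 had none. The receptor Epha2 was the most abundant with a mean of 116 FPKM, followed by Plxnb2 with 112 FPKM and Plxna1 with 80.8 FPKM. The control libraries alone put Plxnb2 first, at 115 and 119 FPKM against 96.0 and 105 FPKM for Epha2, and the IL-12 libraries put Epha2 first, at 133 and 132 FPKM against 107 and 106 FPKM. Among the ligands, Sema3c (62.7 FPKM), Sema3f (46.7 FPKM), Efnb2 (40.0 FPKM) and Sema7a (36.5 FPKM) had the highest mean levels. Single genes dominated some classes: Epha2 held 86.2% to 89.2% of the summed FPKM of the EphA receptors and Ephb4 held 72.6% to 73.2% of that of the EphB receptors.

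**Figure D1:**
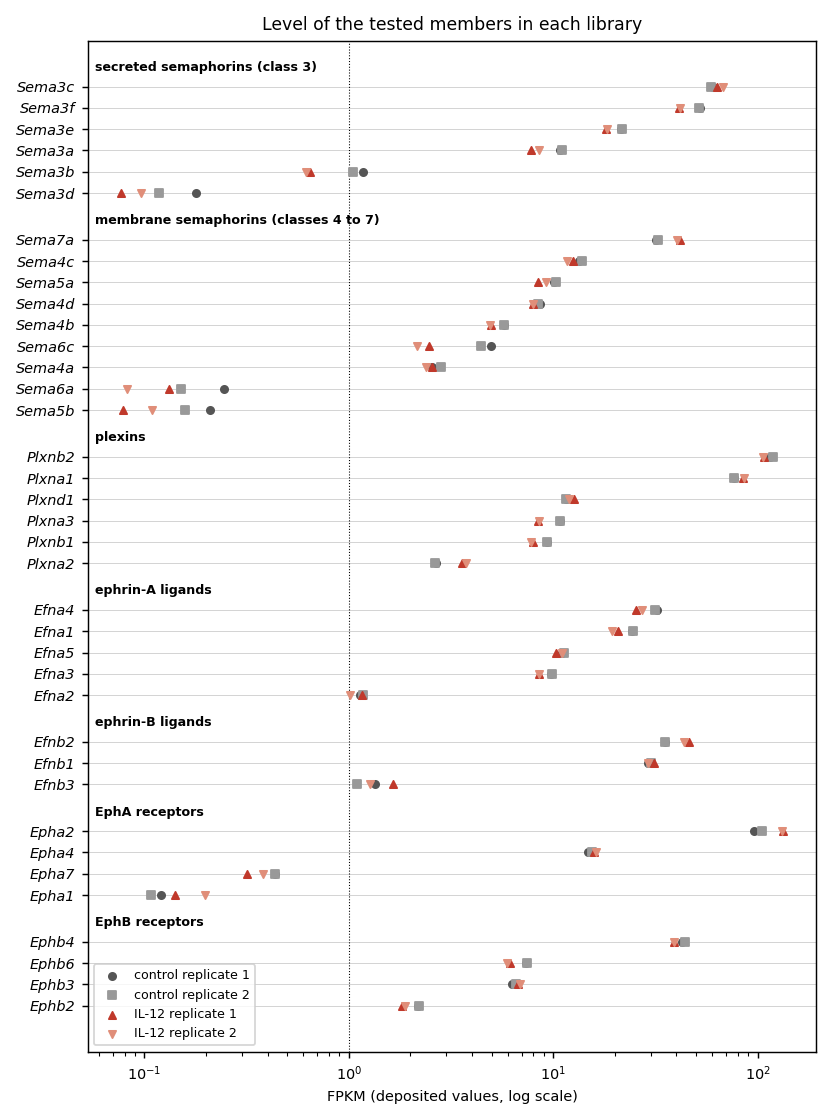
FPKM of the 37 tested members in each of the 4 libraries (horizontal log axis), grouped by class, with 1 symbol per library and a dotted line at 1 FPKM. Epha2, Plxnb2 and Plxna1 lie furthest to the right, and the IL-12 symbols of Sema6c and Sema3b lie left of both control symbols.

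To see how IL-12 altered these genes, counts were compared between the groups with the quasi-likelihood test of edgeR, and p-values were adjusted by the Benjamini-Hochberg method over the 14095 genes that passed a filter on low counts. Of the 51 members, 37 passed the filter and 22 had an adjusted p below 0.05, of which 6 were higher and 16 were lower in the IL-12 libraries. Among all genes tested 30.5% were called, 16.1% as higher and 14.4% as lower. The median log2 fold change of the 37 members was -0.17, against -0.0022 for all genes tested. As calls depend on depth, the members of at least 1000 counts over the 4 libraries were also counted, a limit set after the values were seen. Of these 29 members, 21 were called, 6 as higher and 15 as lower, where 41.1% of all genes of that depth were called, 22.5% as higher and 18.6% as lower. The changes were small, with a median absolute log2 fold change of 0.22 in these 29 members against 0.13 in all genes of that depth. In 32 of the 37 tested members the IL-12 libraries lay on one side of both control libraries, 10 above and 22 below. Of all genes tested 62.9% did so, 31.7% above and 31.2% below, and this share was not computed at matched depth. In bulk RNA, fewer cells expressing a gene and less RNA per cell cannot be told apart.

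Only Sema6c passed the study's stricter limit of a change over 2-fold with an adjusted p below 0.05, which 1.61% of all genes tested passed, 0.752% as lower and 0.858% as higher. At this limit the edgeR test called more genes than the paper reports, and the paper's text does not name Sema6c. With scaling by total counts in place of TMM, the members called were 6 higher and 17 lower, while among all genes the share of calls that were higher went from 52.8% to 40.5%. No called member changed sign in any of the 12 alternative settings. This was likely from the start, because the groups of every called member did not overlap and the settings reuse the same libraries. With all 4 libraries, the DESeq2 Wald test kept 18 of the 22 calls and the fit on all genes with at least 1 count kept 19. The other scalings, tests and filters kept all of them. Some calls were also lost when 1 library was left out. Such fits estimate the spread anew from fewer libraries, so their p-values cannot be compared with those of the main fit.

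**Figure D2:**
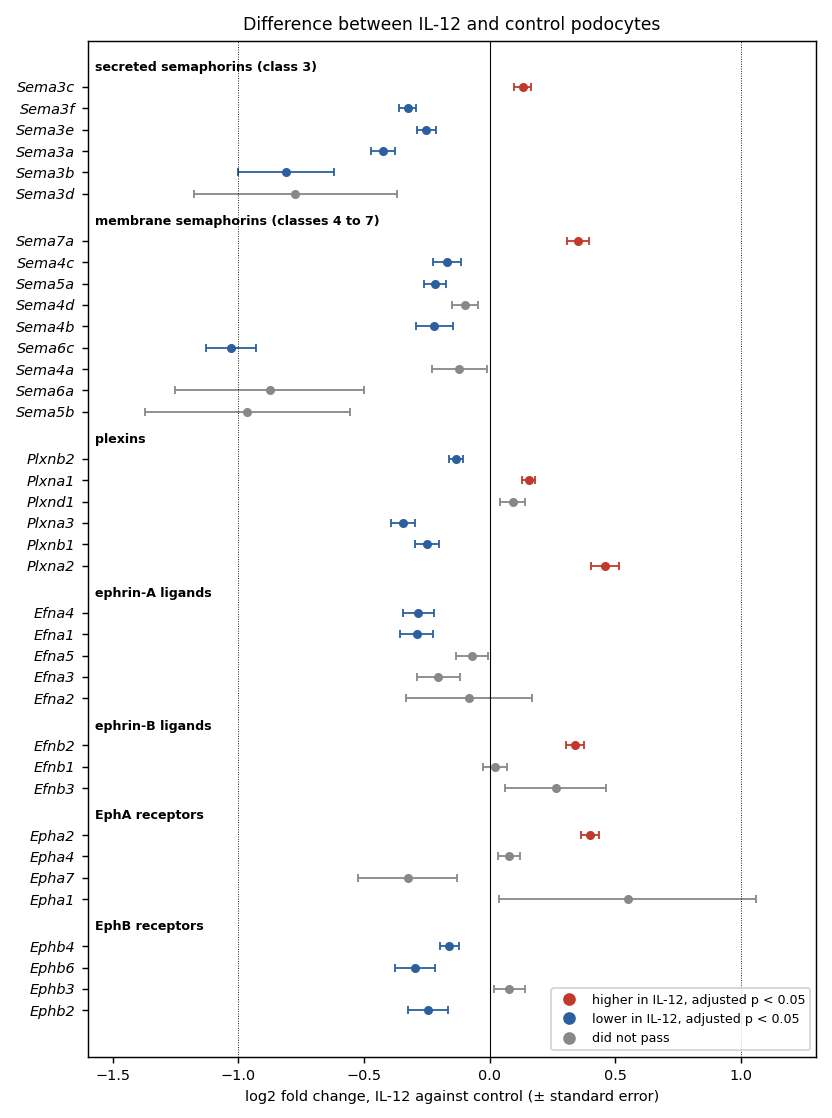
Log2 fold change of the 37 tested members, IL-12 against control, with its standard error as a bar, coloured by the result of edgeR's quasi-likelihood test, with dotted lines at 2-fold. The 6 members called higher are Plxna2, Epha2, Sema7a, Efnb2, Plxna1 and Sema3c, and Sema6c is the called member beyond the 2-fold line.

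The start regions of 4 genes are shown because these are the called members with the smallest p-values in each direction for which a RefSeq window spans the deposited gene start. RefSeq promoter windows of GRCm38.p6, from 250 bases before the start to 50 after it, were matched by symbol for 45 of the 51 members. Epha2 (chr4:141300971-141301270, + strand) and Efnb2 (chr8:8661193-8661492, - strand) were higher after IL-12, and Sema6c (chr3:95160170-95160469, + strand) and Plxna3 (chrX:74328816-74329115, + strand) were lower. Capitals mark matches on either strand to the motifs searched, which were the AP-1 motif TGANTCA, the TEAD motif GGAATG, the GC box GGGCGG, the TATA box TATAAA and the cyclic AMP response element TGACGTCA.
Epha2: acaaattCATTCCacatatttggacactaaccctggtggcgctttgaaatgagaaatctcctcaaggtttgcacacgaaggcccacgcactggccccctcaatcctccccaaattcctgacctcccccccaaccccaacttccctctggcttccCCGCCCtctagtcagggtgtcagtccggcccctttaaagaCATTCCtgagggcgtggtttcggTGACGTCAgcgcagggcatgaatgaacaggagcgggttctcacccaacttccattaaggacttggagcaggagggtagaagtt
Efnb2: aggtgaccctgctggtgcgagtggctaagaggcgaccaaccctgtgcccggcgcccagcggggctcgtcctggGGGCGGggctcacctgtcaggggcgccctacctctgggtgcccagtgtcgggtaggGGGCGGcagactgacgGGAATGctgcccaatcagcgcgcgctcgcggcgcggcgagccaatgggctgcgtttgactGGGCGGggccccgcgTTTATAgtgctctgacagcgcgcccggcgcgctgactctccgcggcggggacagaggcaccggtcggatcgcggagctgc
Sema6c: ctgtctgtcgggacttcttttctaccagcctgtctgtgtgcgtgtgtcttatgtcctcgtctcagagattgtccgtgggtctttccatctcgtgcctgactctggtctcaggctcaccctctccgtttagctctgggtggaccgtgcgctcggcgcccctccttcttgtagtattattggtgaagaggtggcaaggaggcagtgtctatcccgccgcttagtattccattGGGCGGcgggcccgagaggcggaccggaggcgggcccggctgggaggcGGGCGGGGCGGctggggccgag
Plxna3: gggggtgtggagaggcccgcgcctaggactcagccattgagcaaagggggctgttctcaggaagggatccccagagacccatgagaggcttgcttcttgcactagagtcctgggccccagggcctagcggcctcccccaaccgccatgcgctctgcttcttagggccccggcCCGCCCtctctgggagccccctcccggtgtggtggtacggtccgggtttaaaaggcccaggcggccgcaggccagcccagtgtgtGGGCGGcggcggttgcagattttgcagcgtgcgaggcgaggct
The Epha2 window held 2 TEAD motifs, 1 GC box and 1 cyclic AMP response element, and that of Efnb2 held 1 TEAD motif, 3 GC boxes and 1 TATA box. The windows of Sema6c and Plxna3 held 3 and 2 GC boxes and none of the other motifs, and the last pair of GC boxes of Sema6c overlap each other by 1 base. Their GC content was 54.7%, 72.3%, 62.7% and 67.7%, against a median of 52.7% over all 32851 windows. Over all windows 7.81% held an AP-1 motif, 14.7% a TEAD motif, 35.7% a GC box, 13.6% a TATA box and 1.79% a cyclic AMP response element. By gene, 35 of the 45 members held a GC box, 7 a TEAD motif, 3 an AP-1 motif, 1 a TATA box and 1 a cyclic AMP response element. The shares of all 27025 genes with a window were 38.2%, 16.6%, 8.97%, 15.7% and 2.03%. Those genes were not filtered for protein-coding ones as the members were. Among the called members with a window, the TEAD motif was in 2 of the 5 that were higher and 1 of the 14 that were lower, and the AP-1 motif in 0 and 1. These matches are descriptions of the letters and not binding sites.

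The secreted semaphorins were mostly lower after IL-12. Of 7, 6 were tested, 4 were called lower and 1 higher, beside 14.4% and 16.1% of all genes tested. Genes of at least 1000 counts were called lower in 18.6% and higher in 22.5%. The median log2 fold change of the class was -0.38. Sema3a, the class 3 cue that acts through neuropilin-1 and plexin-A receptors, had 150.2 and 153 CPM in control podocytes and 108 and 118 CPM after IL-12. Both IL-12 values were well below both control values, and they differed from each other more than the control values did. Sema3a fell by 0.42 on the log2 scale (SE 0.047, adjusted p = 1.31e-06). Sema3a lies on chromosome 5 from 13125414 to 13602565 of GRCm38.

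Sema3f, a ligand of neuropilin-2, had 271 and 269 CPM in control podocytes and 215 and 216 CPM after IL-12. The groups did not overlap and each pair of libraries nearly coincided. Its log2 fold change was -0.33 (SE 0.035, adjusted p = 7.14e-07). Sema3e, which binds plexin-D1 directly without a neuropilin, had 200.0 and 202 CPM in control podocytes and 168 and 170.2 CPM after IL-12, again without overlap. The log2 fold change of Sema3e was -0.25 (SE 0.038, adjusted p = 4.01e-05). Sema3b was the least abundant of the called members, with 106 and 94 counts without IL-12 and 61 and 53 with it. In CPM these were 5.60 and 4.98 against 3.08 and 2.93, a log2 fold change of -0.81 (SE 0.19, adjusted p = 0.00297). The IL-12 libraries were lower than both controls, with a larger standard error than the other called class 3 genes.

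Sema3c, a ligand of both neuropilins and the most abundant semaphorin by FPKM, was the exception in its class. It had 432 and 423 CPM in control podocytes and 454 and 483 CPM after IL-12. The groups did not overlap, but the IL-12 values differed from each other by more than the lower of them differed from the nearer control. The log2 fold change was 0.13 (SE 0.033, adjusted p = 0.00543), and without IL-12 replicate 2 it was 0.09 with an adjusted p of 0.0951 by the same edgeR test. Sema3c held 41.3% and 40.9% of the summed FPKM of the class 3 semaphorins without IL-12 and 48.3% and 49.4% with it. Sema3d did not pass, with 29 and 19 control counts against 13 and 15 (log2 fold change -0.77, SE 0.40, adjusted p = 0.167). Sema3g, with 4 to 8 counts in each library, was not tested.

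Among the membrane-bound semaphorins of classes 4 to 7, 9 of 13 were tested, with a median log2 fold change of -0.22. Of them 4 were called lower and 1 higher, beside 14.4% and 16.1% of all genes tested and 18.6% and 22.5% of those of at least 1000 counts. Sema6c, a transmembrane semaphorin, changed most of all called members. It was counted 561 and 497 times without IL-12 and 290 and 230 times with it, which are 29.6 and 26.3 against 14.7 and 12.7 CPM. The IL-12 libraries were at 52.4% and 45.5% of the control mean. The log2 fold change was -1.03 (SE 0.099, adjusted p = 2.31e-07), so the value lay within its error of the 2-fold limit. It was -0.94 without control replicate 1 and -0.93 without IL-12 replicate 2, both short of that limit. Sema6c lies on chromosome 3 from 95160457 to 95174024, and no other gene of the deposited table overlaps it.

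Sema7a, a semaphorin with a lipid anchor that binds plexin-C1 and β1 integrins, was the semaphorin with the largest rise. It had 105 and 107 CPM in control podocytes and 137 and 133 CPM after IL-12. The groups were apart by many times the difference within either of them. The log2 fold change was 0.35 (SE 0.044, adjusted p = 5.38e-06), and it ranged from 0.31 to 0.37 over the 12 alternatives. By FPKM, Sema7a held 40.9% and 41.4% of the summed level of the membrane semaphorins without IL-12 and 51.4% and 51.2% with it. It lies on chromosome 9 from 57940112 to 57962865.

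The other called membrane semaphorins fell by little. Sema5a, which carries thrombospondin-type repeats, had 188 and 193 CPM in control podocytes and 156 and 172 CPM after IL-12, a log2 fold change of -0.22 (SE 0.044, adjusted p = 0.000951). The control values of Sema5a were close together and the IL-12 values less so. Sema4c, a ligand of plexin-B2, had 61.4 and 63.4 CPM in control podocytes and 57.5 and 53.5 CPM after IL-12 (log2 fold change -0.17, SE 0.056, adjusted p = 0.029). Sema4b had 32.4 and 32.5 CPM in control podocytes and 28.0 and 27.7 CPM after IL-12 (log2 fold change -0.22, SE 0.072, adjusted p = 0.0271). In both genes the groups did not overlap. An overlapping gene on the opposite strand of Sema4c held 151 counts against its 4466. Sema4c kept its call without control replicate 1 (log2 fold change -0.19, adjusted p = 0.0408 by edgeR's test). It lost the call without control replicate 2, IL-12 replicate 1 and IL-12 replicate 2, with adjusted p of 0.134, 0.0518 and 0.243 and log2 fold changes of -0.15, -0.22 and -0.12. Sema4b lost its call whichever of the 4 libraries was left out, with adjusted p of 0.0818 to 0.124 and log2 fold changes of -0.22 to -0.21. The DESeq2 Wald test gave 0.15 and 0.165 for Sema4c and Sema4b.

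Sema4d (CD100, a ligand of plexin-B1) and Sema4a did not pass, with log2 fold changes of -0.10 (SE 0.052) and -0.12 (SE 0.11). For Sema4d values were 66.0 and 64.9 CPM without and 61.4 and 61.0 CPM with IL-12, without overlap. Sema6a and Sema5b had 102 and 74 counts in all. Their log2 fold changes were -0.88 (SE 0.38, adjusted p = 0.0904) and -0.96 (SE 0.41, adjusted p = 0.0837), so these changes close to 2-fold did not pass in the main fit. Without control replicate 2, Sema6a passed both limits. Sema6b had 2 and 1 control counts against 5 and 6, Sema4g had 2 to 6 counts a library, Sema4f had 2 counts in all and Sema6d had 0.

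**Figure D3:**
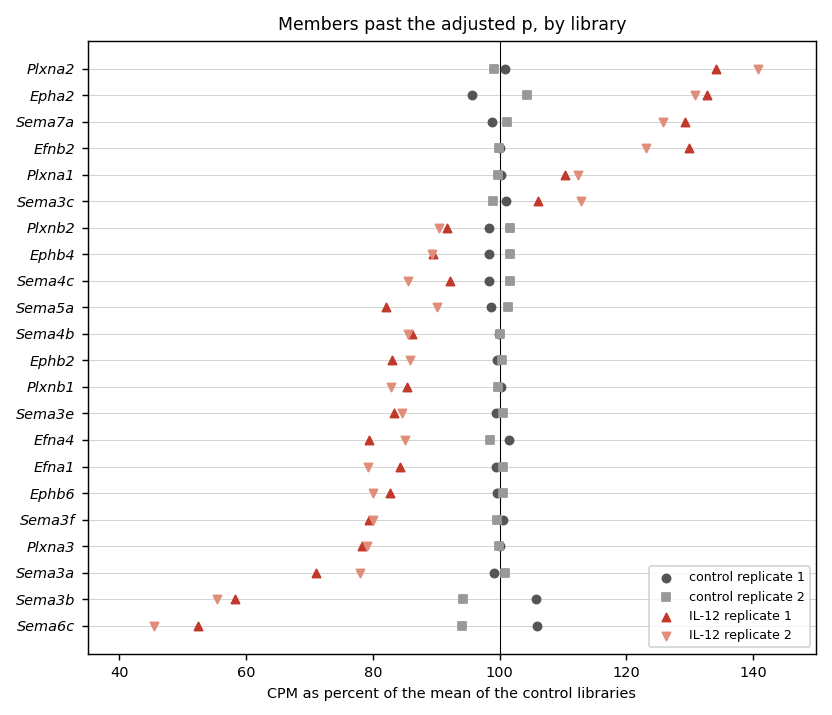
CPM of the 22 members past the adjusted p in each library, as a percent of the mean of the control libraries (vertical line at 100), with 1 symbol per library and genes ordered by fold change. The IL-12 symbols of Sema6c lie at 52.4% and 45.5% and those of Plxna2 at 134% and 141%.

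The plexins, the semaphorin receptors, changed in both directions. Of 9, 6 were tested, 2 were called higher and 3 lower, beside 16.1% and 14.4% of all genes tested. Every tested plexin had at least 1000 counts, and of all genes of that depth 22.5% were higher and 18.6% lower. Plxna2, a receptor of class 6 semaphorins, was the least abundant tested plexin with 3.15 FPKM and rose most among all called members. It had 46.0 and 45.2 CPM in control podocytes and 61.2 and 64.2 CPM after IL-12. Both IL-12 values exceeded both control values by far more than the libraries of a group differed. The log2 fold change was 0.46 (SE 0.057, adjusted p = 4.87e-06), and the gene lies on chromosome 1 from 194618218 to 194816869. Plxna1, which pairs with neuropilins for class 3 semaphorins, had 694 and 689.8 CPM in control podocytes and 764 and 778 CPM after IL-12, a log2 fold change of 0.16 (SE 0.027, adjusted p = 0.000204). The difference for Plxna1 was small, with no overlap between the groups.

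Plxna3, a further partner of the neuropilins, moved the other way. It had 84.8 and 84.6 CPM in control podocytes and 66.4 and 67.0 CPM after IL-12, so the libraries of each group nearly coincided, and its log2 fold change was -0.35 (SE 0.049, adjusted p = 2.16e-05). Plxnb1, the receptor of Sema4d, had 89.6 and 89.3 CPM in control podocytes and 76.4 and 74.2 CPM after IL-12 (log2 fold change -0.25, SE 0.048, adjusted p = 0.000548). Plxnb2, the receptor of Sema4c, had 888 and 919 CPM in control podocytes and 828 and 817 CPM after IL-12 (log2 fold change -0.14, SE 0.027, adjusted p = 0.000815). In both plexin-B genes the IL-12 libraries were below the control libraries. Plxnd1, the receptor of Sema3e, did not pass, with a log2 fold change of 0.09 (SE 0.048, adjusted p = 0.176). Plxnb3 and Plxnc1 had 7 and 5 counts in all, and Plxna4 had 0. The summed CPM of the plexins was 1887 to 1912 in the control libraries and 1888 in both IL-12 libraries.

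The ephrin-A ligands and ephrin-B ligands differed in the direction of their calls, a difference that was not itself tested. All 5 ephrin-A genes were tested, with 2 called lower and 0 higher, beside 14.4% and 16.1% of all genes tested. For genes of at least 1000 counts these shares were 18.6% and 22.5%. Efna1, the main ligand of Epha2, had 44.6 and 45.0 CPM in control podocytes and 37.8 and 35.5 CPM after IL-12, a log2 fold change of -0.29 (SE 0.065, adjusted p = 0.00195). Efna4, the most abundant ephrin-A by FPKM, had 51.7 and 50.1 CPM in control podocytes and 40.4 and 43.3 CPM after IL-12, a log2 fold change of -0.28 (SE 0.062, adjusted p = 0.0016). For both genes all IL-12 values were below all control values. Without IL-12 replicate 1 the adjusted p of Efna4 was 0.0615. An antisense gene overlapping Efna4 held 83 counts over the 4 libraries against 3507 for Efna4. Efna3 had 23.9 and 23.9 CPM in control podocytes and 20.7 and 20.8 CPM after IL-12, without overlap, but did not pass (log2 fold change -0.20, SE 0.085, adjusted p = 0.0791). It is overlapped by an antisense gene with 123 counts against its 1690. Efna5 and Efna2 had log2 fold changes of -0.07 (SE 0.064) and -0.08 (SE 0.25), and their groups overlapped.

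Of the 3 ephrin-B genes, Efnb2 was called higher and the other 2 did not pass. Called higher were 16.1% of all genes tested and 22.5% of those of at least 1000 counts. Efnb2, the ligand of Ephb4, had 242 and 242 CPM in control podocytes and 314 and 298 CPM after IL-12. The control libraries were almost equal and both IL-12 libraries were far above them. Its log2 fold change was 0.34 (SE 0.036, adjusted p = 6.5e-07), with a range of 0.30 to 0.38 over the 12 alternatives, and it lies on chromosome 8 from 8617434 to 8661242. Efnb1, the ephrin of the slit diaphragm, had 101 and 103 CPM in control podocytes and 107 and 100.1 CPM after IL-12, with overlapping groups and a log2 fold change of 0.02 (SE 0.048, adjusted p = 0.807). Efnb3 had 81 and 66 control counts against 104 and 73 (log2 fold change 0.26, SE 0.20). As a share of the summed FPKM of the ephrin-B genes, Efnb2 went from 53.7% and 53.2% without IL-12 to 58.5% and 59.0% with it.

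Among the 8 Eph receptors tested, Epha2 was called higher and 3 EphB receptors lower, beside 16.1% and 14.4% of all genes tested. At a depth of at least 1000 counts the shares of all genes were 22.5% and 18.6%. Epha2, an epithelial receptor of ephrin-A1, had 449 and 489 CPM in control podocytes and 623 and 615 CPM after IL-12. The IL-12 libraries lay further above the higher control than the controls lay from each other. The log2 fold change was 0.40 (SE 0.035, adjusted p = 6.35e-08), with a range of 0.34 to 0.46 over the 12 alternatives. Epha2 lies on chromosome 4 from 141301240 to 141329384. Epha4, which binds ephrins of both classes, had 119.7 and 124 CPM in control podocytes and 127 and 131 CPM after IL-12, above but not past the threshold (log2 fold change 0.08, SE 0.044, adjusted p = 0.197). Epha7 and Epha1 had 293 and 42 counts in all, with log2 fold changes of -0.33 (SE 0.20) and 0.55 (SE 0.51), and neither passed. Epha1 is overlapped on the opposite strand by Zyx with 31658 counts, so its reads are uncertain. Of the other 5 EphA genes, Epha10 had 2 counts, Epha8 had 1 and Epha3, Epha5 and Epha6 had 0.

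Ephb4, the receptor of ephrin-B2 and the leading EphB receptor by FPKM, had 198 and 205 CPM in control podocytes and 180.4 and 180.3 CPM after IL-12. The IL-12 libraries were equal to within 1 CPM and lay below both controls, a log2 fold change of -0.16 (SE 0.038, adjusted p = 0.00289). Ephb6, whose kinase domain is inactive, had 27.7 and 28.0 CPM in control podocytes and 23.1 and 22.3 CPM after IL-12 (log2 fold change -0.30, SE 0.08, adjusted p = 0.00815). Ephb2, a receptor of ephrin-B ligands, had 27.4 and 27.7 CPM in control podocytes and 22.9 and 23.7 CPM after IL-12 (log2 fold change -0.24, SE 0.08, adjusted p = 0.0259). In both genes the groups were apart. Ephb6 kept its call without control replicate 1 and without control replicate 2, with log2 fold changes of -0.30 and -0.29. It lost the call without IL-12 replicate 1 and without IL-12 replicate 2, with similar log2 fold changes of -0.32 and -0.27. Fits without an IL-12 library also called fewer of all genes than fits without a control library. Ephb2 lost its call whichever of the 4 libraries was left out, with log2 fold changes of -0.27 to -0.22. The DESeq2 Wald test gave an adjusted p of 0.0687 for Ephb6 and 0.156 for Ephb2. Ephb3 had 42.0 and 43.5 CPM in control podocytes and 44.8 and 45.4 CPM after IL-12, without overlap, and did not pass (log2 fold change 0.08, SE 0.062, adjusted p = 0.388). Ephb1 had 0 counts.

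Ligands and receptors that bind each other were then set side by side, in 26 textbook pairs in which the receptor may be a neuropilin. These pairs are a selection and not a full list of known partners, so the counts below depend on it. Sema3c with Nrp1, both called higher, is not among them, and Sema6c is in no pair. Both partners had at least 1 FPKM in 17 pairs. Both were tested in 18 pairs, of which 6 had partners called in opposite directions, 2 had both called lower and 1 had both called higher. Sema3a fell while Nrp1, its co-receptor, rose from 174 and 165 CPM to 283 and 285 CPM, a log2 fold change of 0.74 (SE 0.037, adjusted p = 3.68e-11). Plxna1 rose as well, and Sema3f fell while its co-receptor Nrp2 rose. Efna1 fell while Epha2 rose, and Efnb2 rose while its receptors Ephb4 and Ephb2 fell. Sema3f fell with Plxna3, and Sema4c fell with Plxnb2. Sema3c and Nrp2 were both higher, with Nrp2 at 275 and 272 CPM without and 337 and 332 CPM with IL-12 (log2 fold change 0.29, SE 0.032, adjusted p = 1.4e-06). Sema7a rose with its plexin receptor Plxnc1 at 5 counts in all 4 libraries. The calls of Ephb2, Sema4c and Sema3c were lost in 6, 5 and 1 of the 12 alternative settings, so the pairs that hold them are less certain. These pairs share genes and are not independent. Of the 37 tested members 6 were called higher and 16 lower, and both neuropilins were higher, so opposite pairs can follow from single-gene calls. Whether opposite calls were more frequent in these pairs than in other pairs of genes was not tested.

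Co-receptors and effectors through which semaphorins act in the cell changed in both directions. Of the 29 genes in this list, 26 were tested, 14 were higher and 7 were lower, with a median log2 fold change of 0.17. Among all genes tested 16.1% were higher and 14.4% lower, and among those of at least 1000 counts 22.5% and 18.6%. This list and those of the next paragraphs were chosen with earlier results of these data known, so the shares are no test of them. Besides the neuropilins, Rnd1 and Rnd3, small GTPases of the Rnd group, of which Rnd1 binds plexins, rose with log2 fold changes of 0.77 (SE 0.11) and 0.29 (SE 0.042). Mical2, of the MICAL family that oxidises actin, rose by 0.51 (SE 0.032), while Mical3 changed by -0.30 (SE 0.056). Cfl1 (cofilin, which severs actin filaments) and Limk1 and Limk2, the kinases that phosphorylate it, were higher by 0.18, 0.21 and 0.15. L1cam, an adhesion molecule found in the neuropilin-1 complex, fell from 124 and 120.4 CPM to 71.0 and 71.6 CPM, a log2 fold change of -0.78 (SE 0.047, adjusted p = 4.72e-10). Arhgef12 and Arhgef11, the guanine nucleotide exchange factors bound by plexin-B, were lower, with log2 fold changes of -0.38 (SE 0.037) and -0.17 (SE 0.048). Dpysl2, a collapsin response mediator, was lower (-0.27), and its relative Dpysl3 was higher (1.39, SE 0.43) with 73 counts in all. Without IL-12 replicate 1, 13 genes of this list were called, and the DESeq2 Wald test also called 13.

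Among the effectors of ephrins and Eph receptors, 28 genes, 25 were tested, 7 were higher, 3 were lower and 15 did not pass. The 10 called of 25 stand beside 30.5% of all genes tested and 41.1% of those of at least 1000 counts. The median log2 fold change of 0.03 became -0.01 with scaling by total counts. Src and Abl2, non-receptor kinases, were higher with log2 fold changes of 0.33 (SE 0.038) and 0.30 (SE 0.047). Rasa1, a Ras GTPase-activating protein that binds Eph receptors, and Vav2, an exchange factor for Rac, were higher with 0.34 (SE 0.049) and 0.31 (SE 0.048). Itsn1, an exchange factor for Cdc42, and Grb7, an adaptor, were lower with -0.27 (SE 0.042) and -0.49 (SE 0.14). Adam10, the protease that sheds ephrin-A ligands, had a log2 fold change of -0.02 (SE 0.036) and did not pass.

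The slits, netrins and their receptors, together with Rgma, Rgmb and Draxin, served for comparison as 20 genes of other guidance families. Here 10 were tested, 1 was higher and 4 were lower, with a median log2 fold change of -0.04, beside 30.5% called of all genes tested and 41.1% of those of at least 1000 counts. The netrin receptor Unc5b rose (log2 fold change 0.51, SE 0.034, adjusted p = 1.4e-09), and Ntn4, a netrin of basement membranes, fell (-0.53, SE 0.047, adjusted p = 6.57e-08). Rgma and its receptor Neo1 were lower with log2 fold changes of -0.38 (SE 0.074) and -0.15 (SE 0.042), and Draxin was lower (-2.07, SE 0.64) with 32 counts in all. Ntn1 was the most abundant of them by FPKM and narrowly missed the threshold (-0.08, SE 0.029, adjusted p = 0.0503). Without control replicate 1 or IL-12 replicate 1, 3 genes of this list were called.

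**Figure D4:**
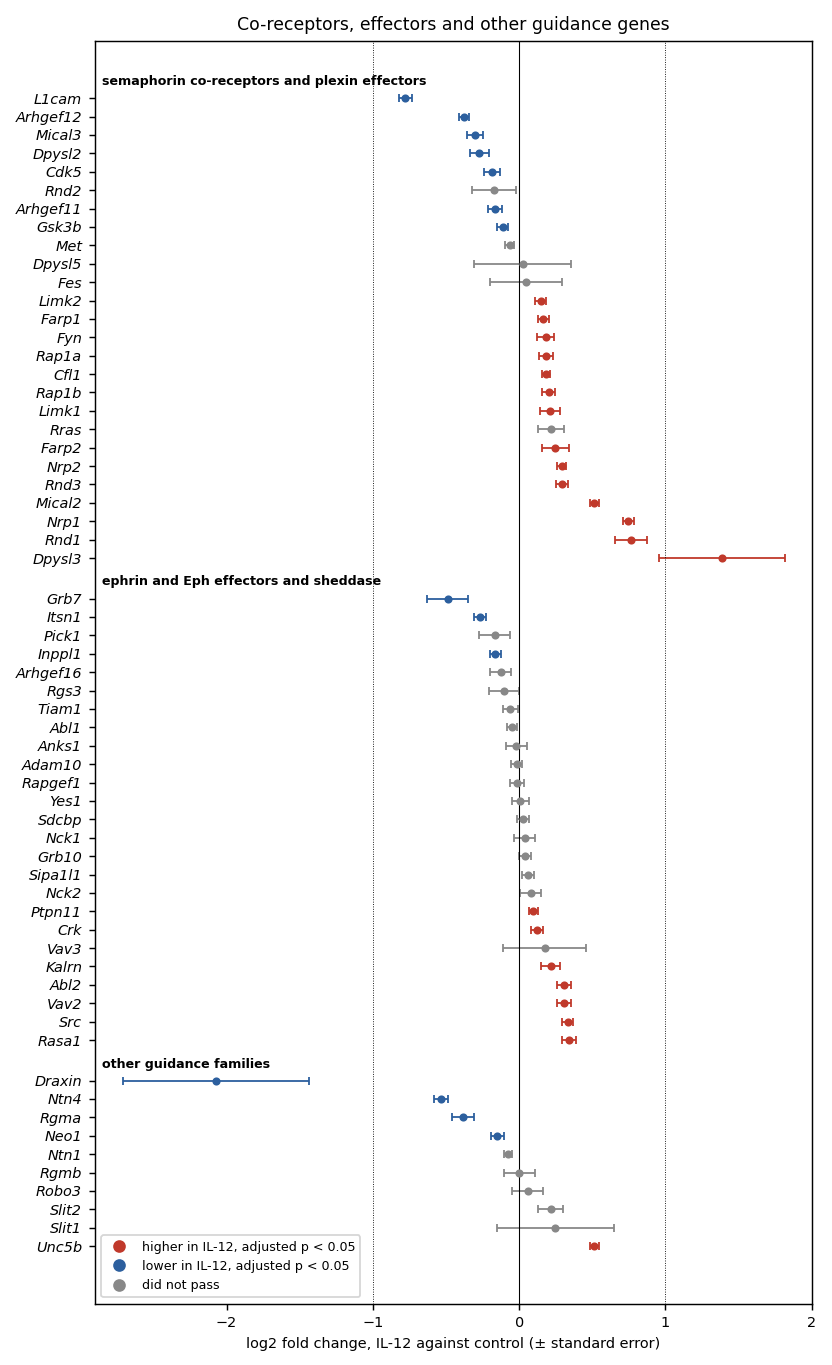
Log2 fold change of the tested genes of the semaphorin co-receptor and plexin effector list, the ephrin and Eph effector list and the list of other guidance families, with the standard error as a bar, coloured by the result of edgeR's quasi-likelihood test. Nrp1 and Nrp2 lie right of 0 and L1cam lies left of it, and the ephrin and Eph effectors stay within about 0.5 of 0.

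Of the members, 9 pairs of consecutive genes lie less than 1 Mb apart in the genome. Sema4a, Efna1, Efna3 and Efna4 follow each other on chromosome 3 with gaps of 811 kb, 32.8 kb and 10.4 kb, and their log2 fold changes were -0.12, -0.29, -0.20 and -0.28, with Sema4a and Efna3 not called. Sema3b and Sema3f are 72.3 kb apart on chromosome 9 and both were lower. Sema3d, Sema3a and Sema3e follow each other on chromosome 5 with gaps of 536 kb and 423 kb, and their log2 fold changes were -0.77, -0.42 and -0.25, with Sema3d not called. Ephb6 and Epha1, 738 kb apart on chromosome 6, had log2 fold changes of -0.30 and 0.55, and Epha1 was not called. In the other pairs, Ephb2 with Epha8 and Plxna3 with Plxnb3, the partner was not tested.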

How the data were processed

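RNA-sequencing of MPC5 podocytes was analysed for 2 IL-12 and 2 control libraries. The authors deposited raw counts per gene, whole numbers without normalization, and FPKM values, each equal to the deposited count per kilobase and per library total times a constant for each library (0.985 to 1.02). The submitters' processing notes name HISAT2, StringTie and mm9. Processing was done by a sequencing company. Counter, strand use and handling of multi-mapping reads are not given in the sources used here. The coordinates of all 51 members equal those of GENCODE M21 for GRCm38, so GRCm38 is the build given.

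Group comparisons used edgeR 4.0.16 under R 4.3.3 (filterByExpr with a minimum of 10 counts and 15 in total, TMM scaling, quasi-likelihood test, Benjamini-Hochberg adjustment over 14095 genes), limma 3.58.1 and DESeq2 1.42.0, and drawn in Python 3.11.15 with matplotlib 3.10.9. The test was checked on simulated counts with changes of 2-fold or more, so the check does not cover the smaller changes of most called members. CPM values are scaled by TMM factors (0.9853 to 1.015). Standard errors (SE) were obtained from the fold change and the F statistic. An exact permutation test of 2 against 2 libraries cannot pass 0.05, so p-values rest on edgeR's shared spread. Members called at an adjusted p below 0.05 and the most abundant of each class were named in full. Members and lists were chosen with earlier results of these data known. The alternatives were other scalings, tests and filters, a replicate block and leaving out each library.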

Additional observations from a re-analysis of the deposited data

How the results depend on the processing

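With 2 libraries a group, changes close to 2-fold in low members such as Sema6a, Sema5b and Sema3d did not pass in the main fit. Levels under 0.149 to 0.163 CPM could not be told from 0. The number of members called higher was 6 in each of the 12 alternatives except 5 without IL-12 replicate 2, and the number called lower ranged from 11 to 17. Of 264 values of the 22 called members, 0 changed sign, which was likely from the start because their groups did not overlap. With all 4 libraries, 4 of the 22 lost the call under the DESeq2 Wald test and 3 with no filter beyond 1 count. A 1.5-fold limit gave 2 members in place of 1, Sema3b beside Sema6c, and leaving out each library gave 0 to 2. The DESeq2 Wald test called 1492 genes higher and 1213 lower among all genes, 13 co-receptors and plexin effectors, 6 ephrin and Eph effectors and 3 genes of other guidance families. The cause was not tested, and this test gave 2187 genes no adjusted p. Leaving out each library gave 1404 to 2010 genes higher and 1124 to 1712 lower among all genes, 13 to 17 co-receptors and plexin effectors, and 3 to 4 genes of other guidance families, with fewer libraries in each fit and the lone library of a group assumed to vary like the others. Without IL-12 replicate 1 the counts over all genes were lowest. With the replicate block all 22 members were called and no further one, 6 higher and 16 lower. Same-numbered libraries share a number only: their deviations from the group means had a correlation of -0.032 across 14095 genes.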
